A study of Mus musculus with 16 samples.

Results

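The genes described are 34 astrocyte genes of the mouse striatum: markers by which astrocytes are recognised, and metabolic, secretory and receptor genes that stood high in RNA from tagged astrocyte ribosomes. They make up 34 of the 20730 genes in the deposited expression values. They were chosen by name, as astrocyte markers or as genes strongly enriched in the ribosome precipitate of these same libraries, so their enrichment there is given as a description and was not tested. Transporters, channels and factors belonging to other sets were not taken. By role they comprise 11 surface proteins, 8 secreted proteins, 4 transporters, 9 enzymes and 2 proteins of intracellular traffic and signalling.

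Whole striata came from 8 adult C57BL/6N mice. All 8 had received a RiboTag adeno-associated virus, which puts Rpl22-HA, a ribosomal protein with a hemagglutinin tag, into astrocytes. In 4 mice (PMCA mice) a second virus carried hPMCA2w/b, a plasma membrane calcium pump that suppresses calcium signals, and in 4 mice (control mice) it carried a control protein. The labels name neither the promoters of the viruses nor the sex of the mice. From each mouse the RNA bound to the tagged ribosomes (IP) and the RNA of the cleared lysate (input) were sequenced, which gives 4 groups of 4 libraries: PMCA IP, control IP, PMCA input and control input. Levels are in log2 CPM, read counts scaled to the size of the library, as deposited. They are not scaled to gene length, so levels of different genes are not set against each other.

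Astrocytes are the glial cells that take up transmitters and potassium, supply neurons with metabolites, make much of the brain's lipid and seal its borders at vessels and meninges. The genes described include enzymes of folate, fatty acid and hormone metabolism, adhesion proteins of the endfeet, and growth factor receptors. In whole tissue, astrocytes contribute a minority of the RNA, and the pull-down of tagged astrocyte ribosomes is meant to raise that share.

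Library depth was 48.1 to 55.1 M reads in PMCA IP, 46.8 to 58.5 M in control IP, 32.3 to 40.9 M in PMCA input and 33.1 to 40.2 M in control input. Rpl22, the gene of the tagged protein, had 8.11 ± 0.11 log2 CPM in PMCA IP and 9.80 ± 0.15 in control IP (SD, n = 4 each), and 6.72 ± 0.09 in PMCA input and 7.60 ± 0.14 in control input. It was lower in PMCA mice in both fractions (log2 fold -1.69, adjusted p = 1.9e-05 in IP and -0.88, adjusted p = 0.000489 in input, limma), so the pump and the amount of tagged ribosome cannot be told apart in any PMCA comparison. Of 32 other astrocyte markers, such as Gfap, Aqp4, Slc1a2 and Sox9, all 32 were higher in IP than in input, beside 40.4% of all genes. Their median log2 difference was 2.76. Markers of microglia summed to 97.5 to 177 CPM in PMCA IP and 73.7 to 94.4 in control IP, against 1538 to 2416 CPM in the inputs. No gene of the marker lists was at 0 in all IP libraries.

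The first question was how strongly each gene stood out in the IP. All 34 were higher in IP than in input, against 40.4% of the 16673 genes tested over all 16 libraries that passed as higher and 43.7% that passed as lower. With total reads and no scaling factor these shares were 28.7% and 57.9%, the median of all genes was -0.34 log2 units in place of -0.05, and the median of the 34 genes was 2.60. The mean difference over the 8 mice ran from 1.90 log2 units for Slc4a4, which is 3.73-fold, to 3.87 for Acsm5, which is 14.6-fold, with a median of 2.89. The rule gives no numeric minimum. Several astrocyte genes outside the chosen set were enriched more than nearly every member: Atp1b2 by 4.33, Sox9 by 3.85 and Kcnj10 by 3.78 log2 units.

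**Figure D1:**
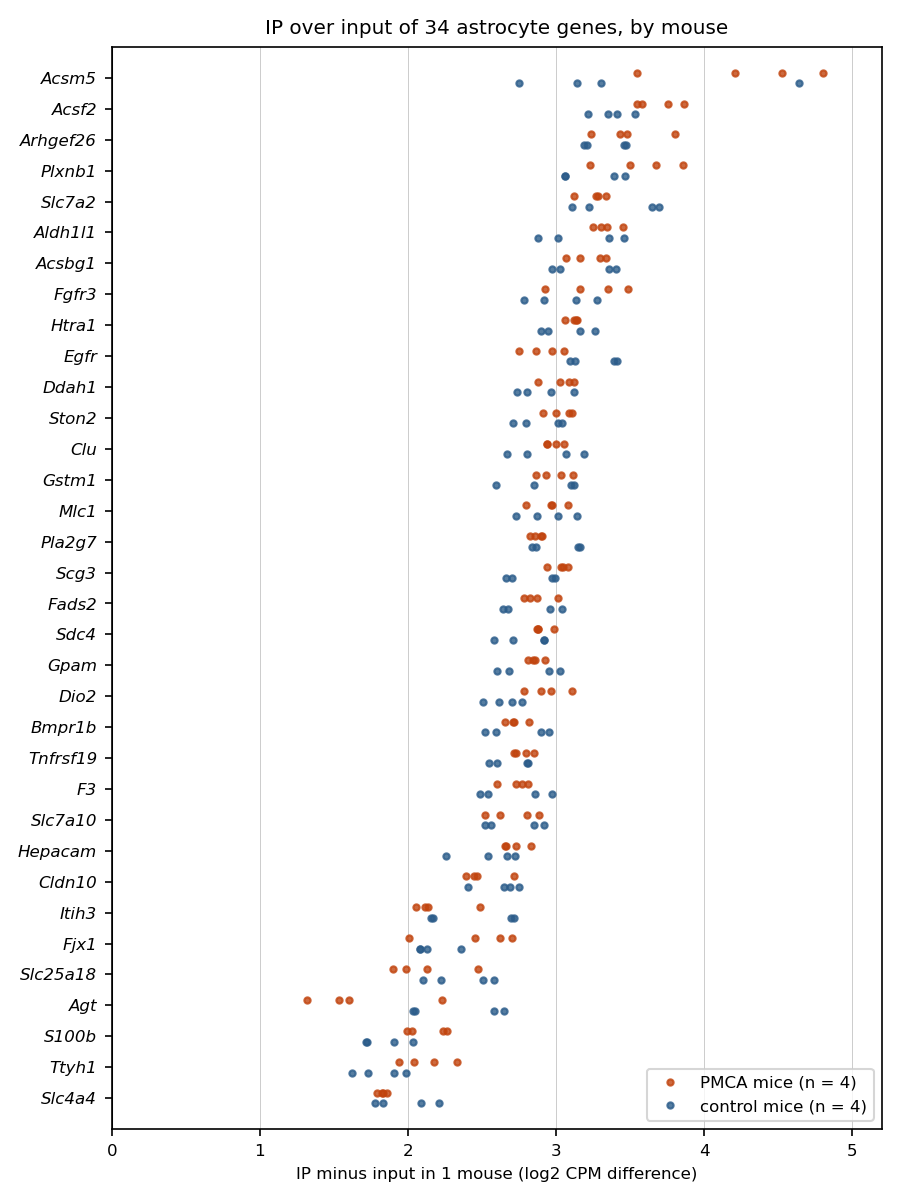
The difference between IP and input of the same mouse is drawn for each of the 34 genes on the horizontal axis in log2 CPM units, with 4 PMCA and 4 control mice as points. Every point lies above 0, and the genes run from Acsm5 with a mean of 3.87 at the top to Slc4a4 with 1.90 at the bottom.

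Among the enzymes, Aldh1l1, the cytosolic formyltetrahydrofolate dehydrogenase that closes the folate one-carbon cycle and is widely used as an astrocyte marker, was enriched by 3.45, 3.35, 3.30 and 3.25 log2 units in PMCA mice 1 to 4, and by 3.01, 3.46, 3.36 and 2.88 in control mice 1 to 4. The treatments overlapped, and control mice 1 and 4 were the lowest of the 8. The same mice were low for most of the set. Control 1 gave the smallest IP minus input for 16 of 34 genes and control 4 for 10, and the median over the 34 genes was 2.63 in control 1 and 2.71 in control 4, against 2.83 to 3.0 in the other 6 mice.

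Acsm5, a medium-chain acyl-CoA synthetase of mitochondria, had the largest mean difference but the fewest reads. It was covered by 151, 131, 81 and 72 reads in PMCA IP and 146, 129, 107 and 40 in control IP, against 4, 7, 3 and 5 reads in PMCA input and 4, 11, 13 and 4 in control input. Its differences spread from 2.75 to 4.80 log2 units between mice, wider than for any other member, so its place above the rest is not distinguishable at this depth. Acsf2, another acyl-CoA synthetase, followed with 3.53 and Acsbg1, which activates long-chain fatty acids, with 3.2. Dio2, the deiodinase that converts thyroxine into active thyroid hormone, reached 2.79. Gpam, which starts glycerolipid synthesis, reached 2.84, Fads2, a desaturase of polyunsaturated fatty acids, 2.85, Ddah1, which degrades the nitric oxide synthase inhibitor dimethylarginine, 2.97, and Gstm1, a glutathione transferase, 2.95. The mu glutathione transferases include closely similar copies, and how reads shared between them were counted is not known, so the value of Gstm1 is uncertain to that extent.

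The surface proteins ranged from 1.97 to 3.40 log2 units. Plxnb1, a receptor of class 4 semaphorins, led with 3.40, followed by the growth factor receptors Fgfr3 with 3.13 and Egfr with 3.08. Mlc1 and Hepacam, partners in the membrane complex of perivascular endfeet, had 2.94 and 2.63. The proteoglycan Sdc4 had 2.84, the BMP receptor Bmpr1b 2.73, the TNF receptor family member Tnfrsf19 2.73, tissue factor F3, which starts coagulation, 2.72, and the tight junction protein Cldn10 2.56. Ttyh1, a tweety family membrane protein, stood lowest of this class with 1.97.

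Among secreted proteins the values lay between 1.99 and 3.09 log2 units. The serine protease Htra1 had 3.09, the lipid carrier Clu 2.96, the phospholipase Pla2g7, which inactivates platelet-activating factor, 2.94, and the granin Scg3 2.93. Itih3, a hyaluronan-binding inhibitor chain, had 2.32, Fjx1, the mouse relative of the fly gene four-jointed, 2.30, angiotensinogen (Agt) 2.0 and the calcium-binding S100b 1.99. Of the transporters, Slc7a2 for cationic amino acids had 3.33, Slc7a10 for small neutral amino acids such as serine 2.71, the mitochondrial glutamate carrier Slc25a18 2.24 and the sodium bicarbonate cotransporter Slc4a4 1.90. The exchange factor Arhgef26 had 3.41 and the endocytic adaptor Ston2 2.96.

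Enrichment of paralogs and pathway partners, listed by family or pathway, was tested with limma. These lists were drawn up with earlier results of these data known. Of 164 such genes in 23 families or pathways (both called families below), 98 were higher and 51 lower in IP than in input. Over all genes 40.4% were higher and 43.7% lower. The median of the 164 was 0.60 log2 units. A chosen gene had the largest IP over input in 19 of the 23 families, a count that the choice by enrichment shaped. One split lay among the mitochondrial glutamate and aspartate carriers: Slc25a18 was at 2.24, whereas Slc25a22, the other glutamate carrier, and the aspartate carriers Slc25a12 and Slc25a13 were all lower in IP than in input. Scg3 stood at 2.93, against 0.41 ± 0.05 (SE) for Scg2, -0.20 ± 0.05 for Chga, -0.43 ± 0.05 for Chgb and -0.73 ± 0.08 for Scg5, the other granins, which package neuropeptides in dense-core vesicles.

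In other families a relative or a pathway partner shared the enrichment. Gldc, the glycine decarboxylase that feeds one-carbon units to folate, was enriched by 3.21 ± 0.07 (SE) log2 units, against 3.26 for Aldh1l1. Fads1 (2.52), which acts beside Fads2 on the same fatty acids, the receptors Fgfr1 (2.71) and Erbb2 (2.52), and the cystine exchanger Slc7a11 (2.64) were all higher in IP with adjusted p of at most 4.2e-15. In 4 families another gene lay above the chosen one: Nos1 (3.25) over Ddah1, Itih5 (2.59) over Itih3, Ston1 (3.57) over Ston2, and S100a11 (2.52) with other S100 genes over S100b. Nos1 marks a class of striatal interneurons. Of 13 interneuron markers 10 were higher in IP, beside 40.4% of all genes. The 13 summed to 1183 to 1309 CPM in PMCA IP and 1405 to 1476 in control IP, against 380 to 432 CPM in the inputs.

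**Figure D2:**
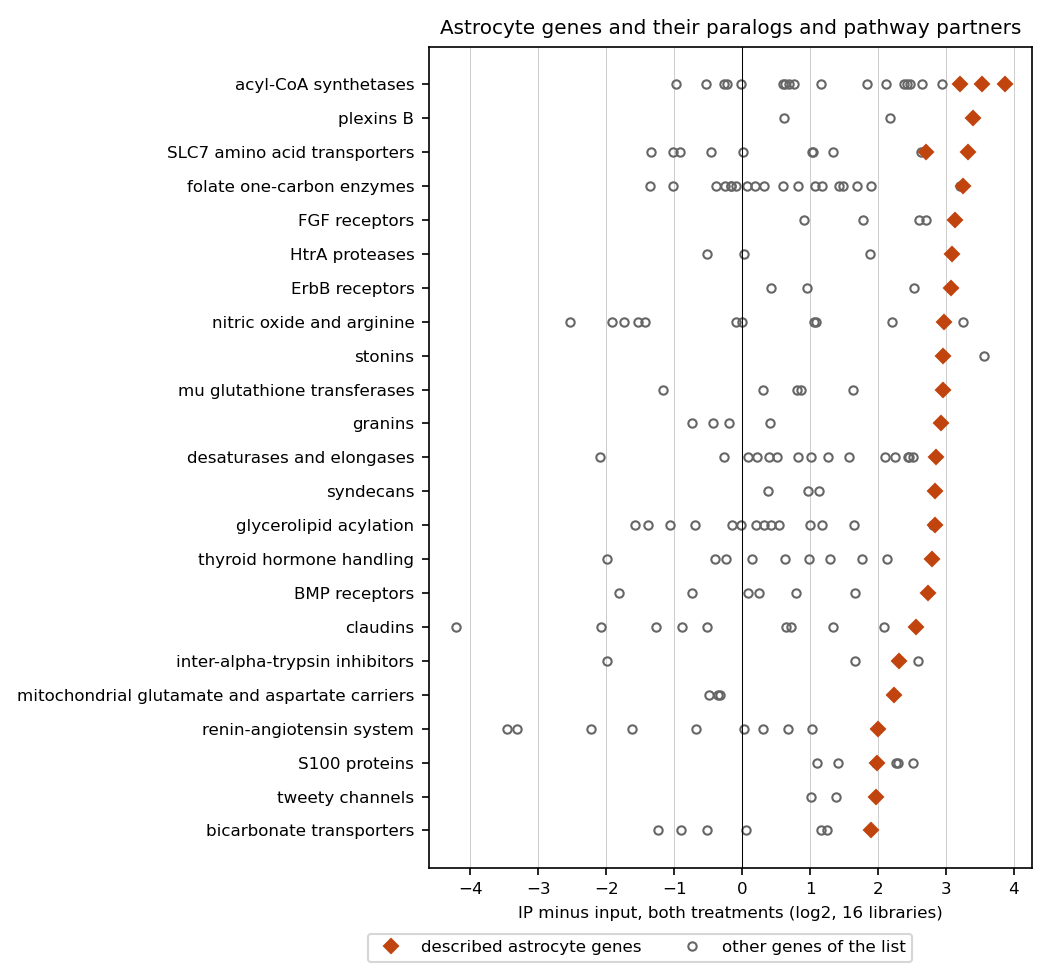
The difference between IP and input over both treatments, in log2 units over 16 libraries, is drawn for the chosen astrocyte genes as filled diamonds and for the other genes of the same family or pathway as open circles. Slc25a18 at 2.24 and Scg3 at 2.93 stand far to the right of their relatives, whereas Ston1 at 3.57 lies to the right of Ston2.

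The second question was how these genes differed in the IP between mice with and without the calcium pump. Interneuron genes were enriched in the IP as well, so differences there are not assigned to astrocytes alone. Of the 34 genes, 5 rose and 3 fell in PMCA IP relative to control IP at an adjusted p under 0.05, which is 23.5% of the set. Over all 15748 genes tested 19.6% were called, 9.54% higher and 10.1% lower, so the share of the set was near that of all genes. Aldh1l1, Plxnb1, Acsf2, Scg3 and Ston2 rose, and Agt, Slc25a18 and Cldn10 fell. The median log2 fold of the set was 0.09, against -0.01 over all genes, and 23 of the 34 folds were above 0. By role, 2 of 9 enzymes rose, 1 of 11 surface proteins rose and 1 fell, 1 of 8 secreted proteins rose and 1 fell, 1 of 4 transporters fell, and 1 of 2 traffic genes rose. Whether fewer cells or less RNA per cell underlies a lower level cannot be told apart in such bulk libraries. The count of 8 fell to 4 without PMCA 1, to 4 without PMCA 2 and to 5 without PMCA 3. Without the 2 mice with high Xist (control 4 and PMCA 3) it was 2, Agt and Slc25a18.

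**Figure D3:**
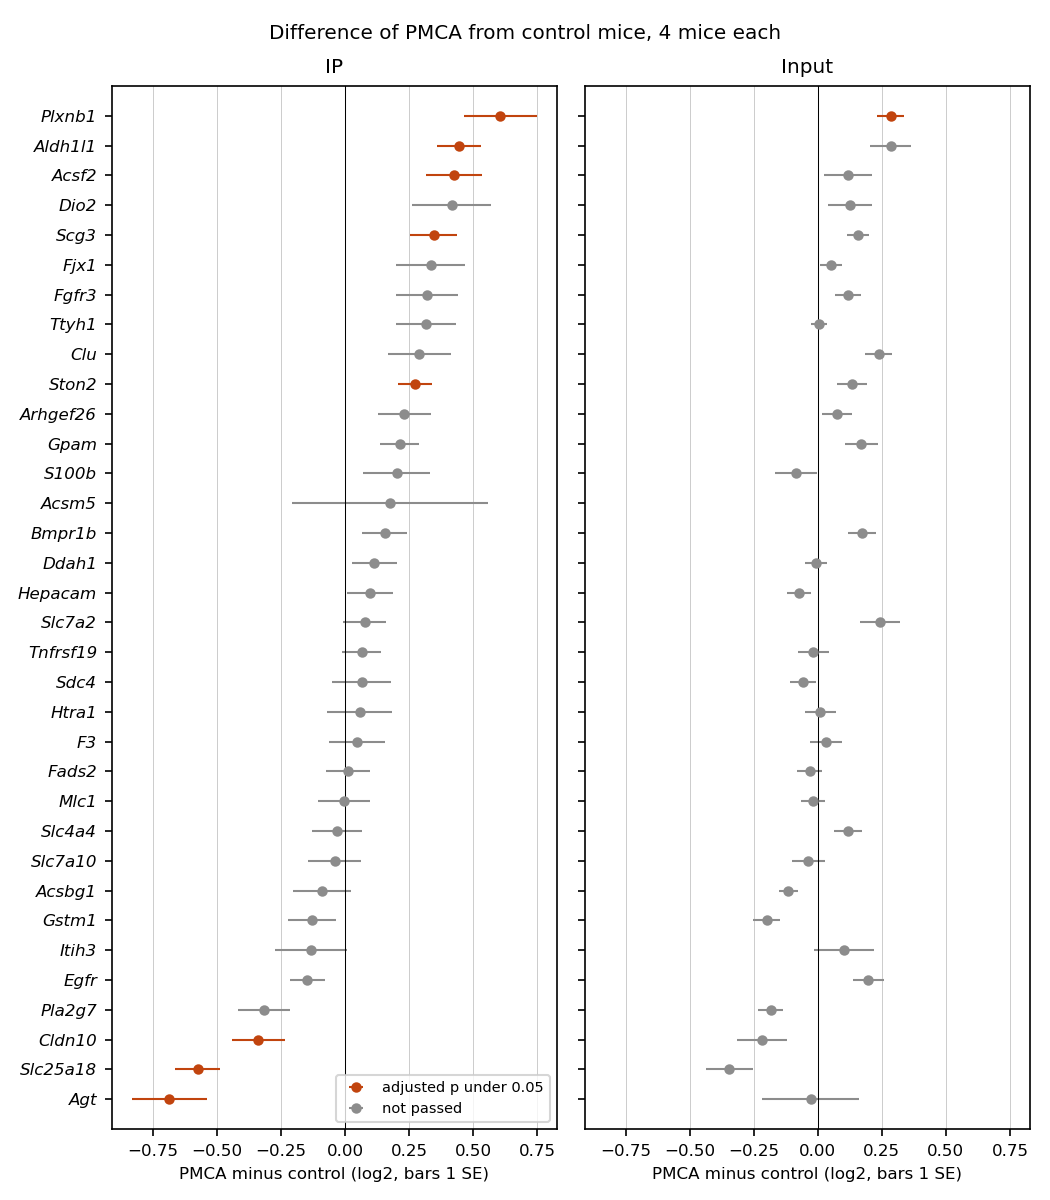
The log2 difference of PMCA from control mice is drawn with its standard error for each gene, in IP on the left and in input on the right, with genes past an adjusted p of 0.05 coloured. In IP the genes spread from Plxnb1 at 0.61 to Agt at -0.69, whereas in input Plxnb1 at 0.28 is the coloured one and Acsm5, too low to test, is left out.

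Aldh1l1 had 9.61, 9.59, 9.68 and 9.58 log2 CPM in PMCA IP 1 to 4, against 8.98, 9.28, 9.31 and 9.11 in control IP 1 to 4. Every PMCA library lay above every control library, and the PMCA libraries were close together. The log2 fold was 0.44 ± 0.09 (SE), with an adjusted p of 0.00793 in limma. In input it had 6.16, 6.25, 6.38 and 6.33 log2 CPM in PMCA mice and 5.97, 5.83, 5.95 and 6.23 in control mice, where control 4 reached into the PMCA range. The log2 difference there was 0.28 ± 0.08, with an adjusted p of 0.113. In IP, it held with each library left out in turn, but without the 2 mice with high Xist its adjusted p was 0.0627 at a log2 fold of 0.40, and within the lower set of animal numbers (PMCA 1 and 2 against control 1 to 3) it was 0.0593 at 0.41.

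Plxnb1 had 10.07, 9.90, 9.75 and 9.34 log2 CPM in PMCA IP, against 9.04, 9.27, 9.27 and 9.05 in control IP. The groups did not overlap, though PMCA 4 lay close to the control libraries and PMCA 1 far above. Its log2 fold of 0.61 ± 0.14 (SE, adjusted p = 0.0174) was the largest rise of the set, and without the 2 mice with high Xist its adjusted p was 0.0882. It was also the single member called in input, with 6.21, 6.23, 6.25 and 6.11 log2 CPM in PMCA mice against 5.98, 5.80, 5.89 and 6.00 in control mice, and a log2 fold of 0.28 ± 0.05 (adjusted p = 0.0483). The difference between the 2 folds was 0.32 and did not pass (adjusted p = 0.331). Neither of the other B plexins, Plxnb2 and Plxnb3, was called in IP.

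The enzyme Acsf2 had 6.84, 6.83, 6.71 and 6.33 log2 CPM in PMCA IP, against 6.19, 6.35, 6.31 and 6.15 in control IP. PMCA 4 fell within the control range and the other 3 PMCA libraries lay above it. The log2 fold was 0.43 ± 0.11 (SE, adjusted p = 0.024), and it did not pass without PMCA 1 (adjusted p = 0.065), PMCA 2 (0.0678), PMCA 3 (0.065), control 1 (0.0509) or control 4 (0.0541). Of 17 other acyl-CoA synthetases tested in IP, Acsf3 rose (0.40), Slc27a2 (-0.51) and Slc27a3 (-0.66), which take up and activate long fatty acids, fell, and 14 did not pass, beside 19.6% of all genes called. The call of Slc27a3 was lost in 6 of the 8 cases that leave out 1 library and that of Slc27a2 in 2.

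Scg3, a granin that helps to load dense-core vesicles, had 10.45, 10.50, 10.45 and 10.41 log2 CPM in PMCA IP, against 9.90, 10.25, 10.20 and 10.09 in control IP. The PMCA libraries all lay above the control libraries, of which control 1 was the lowest. Its log2 fold was 0.35 ± 0.09 (SE, adjusted p = 0.0261), and it did not pass without PMCA 1 (0.0604), PMCA 2 (0.0726), PMCA 3 (0.0675) or control 4 (0.0509), with the number set of the source names as a covariate (0.0732) or within the lower number set (0.103). The other 4 granins moved the opposite way in IP: Scg2 fell by 0.54, Chga by 0.62, Chgb by 0.44 and Scg5 by 0.41 log2 units, with adjusted p between 0.002 and 0.0255. Leaving out 1 library ended the call of Scg5 in 3 of 8 cases and those of Scg2, Chga and Chgb in 0. In the difference between the fractions Scg2, Chga and Chgb were called in the fit without a block, but Chgb did not pass with the mouse as a replicate block (adjusted p = 0.0525), and none of the 3 passed without PMCA 1, PMCA 2, PMCA 3 or control 2. Neuron markers fell in the same libraries, 13 of 20 beside 10.1% of all genes, and summed to 4365 to 5137 CPM in PMCA IP and 5208 to 6790 in control IP. Striatal projection neuron markers fell in 2 of 14 only, and their sums overlapped, with 3269 to 5021 CPM in PMCA IP and 3017 to 5430 in control IP. The part of neuronal RNA in the granin result was not tested.

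Ston2, an adaptor for the retrieval of synaptotagmin, had 7.95, 7.85, 7.76 and 7.79 log2 CPM in PMCA IP, against 7.47, 7.60, 7.66 and 7.54 in control IP. The groups were separate by a small gap. The log2 fold was 0.27 ± 0.07 (SE, adjusted p = 0.0205), and it did not pass without PMCA 1 (0.055), PMCA 2 (0.0568) or control 2 (0.0502). Its paralog Ston1 rose too, by 0.85 ± 0.15 (adjusted p = 0.0054), at a far lower read coverage.

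Angiotensinogen, the precursor from which renin and the converting enzyme release angiotensin, is made in the brain mainly by astrocytes. Agt had 5.40, 5.35, 5.38 and 5.58 log2 CPM in PMCA IP, against 6.19, 6.18, 6.44 and 5.63 in control IP. Control 4 lay just above the PMCA libraries and the other 3 control libraries far above. The log2 fold was -0.69 ± 0.15 (SE, adjusted p = 0.0121), the largest fall of the set. By animal number in the titles, the difference was -0.90 in the lower set (PMCA 1 and 2 against control 1 to 3) and -0.15 in the higher set (PMCA 3 and 4 against control 4). The higher set thus rests on 1 control mouse, which its source name places in the lower set. In input Agt had 3.80, 4.04, 3.15 and 4.04 log2 CPM in PMCA mice and 4.16, 3.60, 3.79 and 3.59 in control mice, with full overlap and a log2 difference of -0.03 ± 0.19. The 2 folds differed by -0.66, which did not pass (adjusted p = 0.224). Agt kept its call in IP under all alternatives, between -0.90 and -0.58. Among 6 other genes of the renin-angiotensin system tested in IP, the receptors Agtr1a (-0.54) and Agtr2 (-0.68) and the prorenin receptor Atp6ap2 (-0.43) fell and 3 did not pass. The call of Agtr1a was lost in 10 of 18 alternatives and that of Agtr2 in 13 of 18 (5 and 7 of the 8 that leave out 1 library), and that of Atp6ap2 in 0.

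Slc25a18, which carries glutamate into mitochondria, had 5.92, 5.76, 5.99 and 5.83 log2 CPM in PMCA IP, against 6.28, 6.52, 6.65 and 6.35 in control IP. The highest PMCA library lay below the lowest control library. The log2 fold of -0.58 ± 0.09 (SE) had the smallest adjusted p of the set, 0.0039, and was called under all alternatives. In input its levels were 3.79, 3.78, 3.52 and 3.93 in PMCA mice and 4.18, 3.94, 4.15 and 4.13 in control mice. These groups were separate as well, by a narrow gap, and the log2 difference of -0.35 ± 0.09 did not pass (adjusted p = 0.106). Of its 3 relatives, the aspartate carrier Slc25a12 fell in IP by 0.45 log2 units (adjusted p = 0.0039).

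Cldn10 had 6.82, 6.84, 6.79 and 6.61 log2 CPM in PMCA IP, against 6.92, 7.25, 7.31 and 6.92 in control IP. Control 1 and 4 lay just above the PMCA libraries. The log2 fold was -0.34 ± 0.10 (SE, adjusted p = 0.0444). This was the call nearest to the threshold, and it was lost without any of PMCA 1 (0.0744), PMCA 2 (0.0713), PMCA 3 (0.091), PMCA 4 (0.0744), control 2 (0.121) or control 3 (0.11), with median-of-ratios scaling (0.0542), with the animal number set as a covariate (0.057 by titles, 0.195 by source names) and within the lower number set (0.109).

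**Figure D4:**
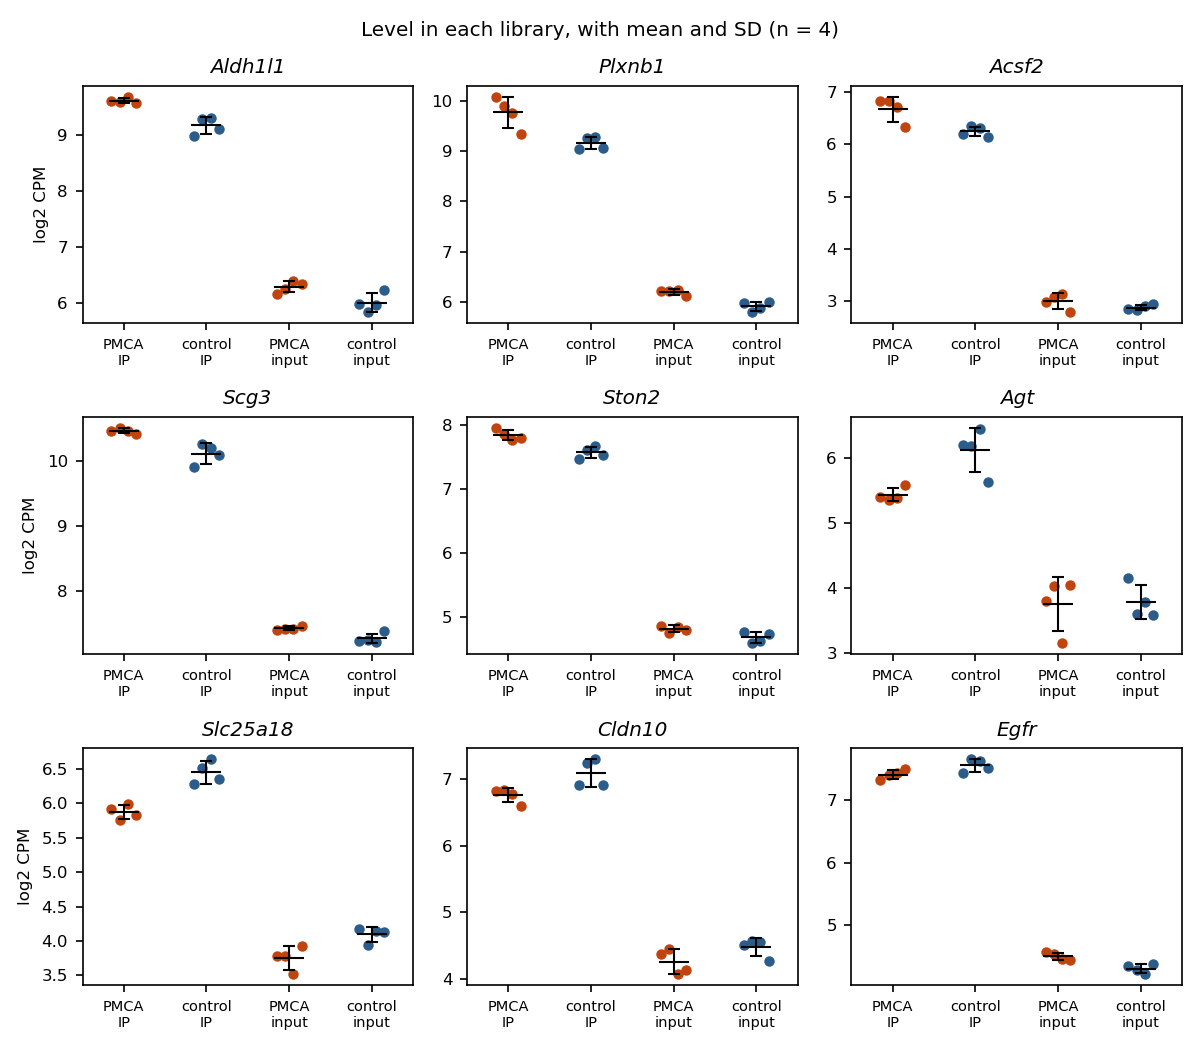
Levels in log2 CPM are drawn for each of the 16 libraries, with the mean and SD of each group of 4, for the 8 genes called in IP and for Egfr. The IP groups stand 1 or more log2 units above the inputs in every panel, and Aldh1l1, Plxnb1, Scg3, Ston2, Agt, Slc25a18 and Cldn10 have separate PMCA and control groups in IP. The 8 genes were drawn because they were called, so this separation is no further support. Clu and Gpam, not called and not drawn, had separate groups in IP as well.

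The other 26 genes did not pass in IP and had log2 folds between -0.32 and 0.42. Nearest to the threshold were Pla2g7 at -0.32 (adjusted p = 0.0523), Gpam at 0.21 (0.0703), Dio2 at 0.42 (0.082), Ttyh1 at 0.32 (0.0832) and Fgfr3 at 0.32 (0.0874). With the animal number set as a covariate 3 of the 26 passed: Dio2 (0.52, adjusted p = 0.00855 by titles, and 0.63, 0.0335 by source names), Ttyh1 (0.38, 0.0172 and 0.47, 0.0448) and Fjx1 (0.42, 0.0225 and 0.55, 0.0287). Dio2 had 9.30, 9.21, 8.91 and 8.74 log2 CPM in PMCA IP and 8.48, 8.84, 8.86 and 8.33 in control IP, so PMCA 4 lay within the control range. Among the genes of its pathway, the hormone-binding Crym rose (0.32). Fgfr3 had 9.80, 9.69, 9.61 and 9.31 in PMCA IP and 9.04, 9.40, 9.42 and 9.26 in control IP, again with PMCA 4 among the controls, whereas Fgfr1 rose (0.47), a call lost in 4 of the 8 cases that leave out 1 library. That of Crym was also lost in 4 of 8.

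For several defining genes of astrocytes the levels in IP were close between the treatments. Mlc1 differed by -0.00 ± 0.10 (SE) log2 units, Fads2 by 0.01 ± 0.09, Slc4a4 by -0.03 ± 0.10, Slc7a10 by -0.04 ± 0.10, F3 by 0.05 ± 0.11 and Htra1 by 0.06 ± 0.13. Sdc4 and Tnfrsf19 differed by 0.07 each, Slc7a2 by 0.08, Hepacam by 0.10, Ddah1 by 0.11 and Bmpr1b by 0.16. Acsbg1 differed by -0.09, Gstm1 by -0.13, Itih3 by -0.13 and Egfr by -0.15. S100b, Arhgef26, Clu and Fjx1 were above by 0.20 to 0.33 and Acsm5 by 0.18 ± 0.38, none of them called. Clu, an abundant secreted chaperone and lipid carrier, had 12.27, 12.38, 12.33 and 12.39 log2 CPM in PMCA IP and 11.79, 12.16, 12.20 and 12.05 in control IP, groups that did not overlap at a log2 fold of 0.29 ± 0.12 (adjusted p = 0.121).

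Of the 32 other astrocyte markers, 7 rose in PMCA IP and 0 fell by limma, with a median of 0.09: the sodium pump subunit Atp1b2 (0.67), the formin-related Daam2 (0.61), the potassium channel Kcnj10 (0.54), the proline-degrading Prodh (0.53), the transcription factors Gli3 (0.53) and Sox9 (0.49), and Cbs of the transsulfuration pathway (0.37). Over all genes 9.54% rose and 10.1% fell. With 1 library left out, the call of Prodh was lost in 6 of 8 cases and that of Cbs in 5 of 8. The 32 markers summed to 90985, 90312, 82071 and 74606 CPM in PMCA IP 1 to 4 and to 64758, 79687, 79906 and 61773 CPM in control IP 1 to 4. Control 1 and control 4 were low, the same libraries in which most of the 34 genes were lowest (18 in control 1 and 9 in control 4). Nuclear noncoding RNAs were higher in PMCA IP for 7 of 8 and summed to 3231 to 6241 CPM, against 1543 to 2258 CPM in control IP, and microglial markers were higher for 8 of 18. Oligodendrocyte markers were called in 0 of 14 by limma and summed to 6707 to 7994 CPM in PMCA IP and 5641 to 12384 CPM in control IP, where control 4 was the highest. The part of these shifts in the results for the 34 genes was not tested.

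In input, 1 of the 33 members tested passed, Plxnb1, at a background of 0.442% of 16306 genes. The median log2 fold was 0.03 and the range -0.35 to 0.28. This count was 7 without control 4 and 0 without any 1 of the other 7 inputs. Over all genes 72 were called, and 1356 without control 4. After Plxnb1, the smallest adjusted p belonged to Clu (0.24 ± 0.05 SE, adjusted p = 0.0755), whose 4 PMCA inputs of 9.33, 9.32, 9.39 and 9.39 log2 CPM all lay above the control inputs of 9.12, 8.98, 9.14 and 9.25.

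The difference of PMCA from control mice in IP was set against that in input in 1 model over all 16 libraries. A change between the fractions was called for 1 of 34 members, Egfr, at a background of 2.03% of 16673 genes. Egfr, the receptor of epidermal growth factor and related ligands, had 7.32, 7.40, 7.44 and 7.50 log2 CPM in PMCA IP, against 7.44, 7.67, 7.62 and 7.51 in control IP. In input it had 4.57, 4.54, 4.47 and 4.44 in PMCA mice, against 4.35, 4.28, 4.22 and 4.38 in control mice. It thus lay lower on average in PMCA IP with overlap, by 0.15, and higher in PMCA input without overlap, by 0.20, neither of which passed alone. The difference was -0.34 ± 0.08 (SE, adjusted p = 0.0444). With the mouse as a replicate block, which the shared animal of each IP and input calls for, it was the same -0.34 with an adjusted p of 0.0806. Without a block, the call was lost with median-of-ratios scaling (0.0676), without the filter (0.0536) and with voom weights (0.0644). It was also lost without PMCA 1 (0.175), PMCA 2 (0.16), PMCA 3 (0.0973), control 2 (0.161), control 3 (0.14) or control 4 (0.0513). Among its relatives, Erbb4 fell in IP (-0.32) and Erbb2 rose (0.40). The call of Erbb4 was lost in 6 of the 8 cases that leave out 1 library and that of Erbb2 in 0.

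The set was spread over 14 chromosomes, with 5 genes on chromosome 3 and 4 each on chromosomes 7, 9 and 14. In the RefSeq annotation of GRCm38.p6, Aldh1l1 lies at chr6:90550768-90599171, Agt at chr8:124556587-124569706 and Slc25a18 at chr6:120773504-120794169. The promoters of these 3 genes are shown because Aldh1l1 is the defining marker that rose and Agt and Slc25a18 are the falls called under every alternative. Each window holds 250 bases before and 50 after a transcript start from RefSeq, with matches to the motifs searched in capitals: chr6:90550543-90550842 on the plus strand for Aldh1l1, chr8:124569657-124569956 on the minus strand for Agt and chr6:120773518-120773817 on the plus strand for Slc25a18. The Slc25a18 window begins past the annotated gene start at 120773504, so it lies wholly within the gene, around a later transcript start.
Aldh1l1: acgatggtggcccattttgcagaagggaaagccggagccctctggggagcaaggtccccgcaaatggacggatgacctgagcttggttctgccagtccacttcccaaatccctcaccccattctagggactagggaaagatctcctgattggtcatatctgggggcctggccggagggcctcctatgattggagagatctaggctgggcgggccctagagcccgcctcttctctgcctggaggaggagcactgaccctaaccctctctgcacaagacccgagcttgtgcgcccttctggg
Agt: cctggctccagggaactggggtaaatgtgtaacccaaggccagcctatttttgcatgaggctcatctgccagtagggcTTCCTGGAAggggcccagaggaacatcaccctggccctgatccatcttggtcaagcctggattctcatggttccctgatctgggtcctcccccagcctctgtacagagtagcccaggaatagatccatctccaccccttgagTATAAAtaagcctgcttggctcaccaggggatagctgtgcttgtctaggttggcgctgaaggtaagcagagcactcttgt
Slc25a18: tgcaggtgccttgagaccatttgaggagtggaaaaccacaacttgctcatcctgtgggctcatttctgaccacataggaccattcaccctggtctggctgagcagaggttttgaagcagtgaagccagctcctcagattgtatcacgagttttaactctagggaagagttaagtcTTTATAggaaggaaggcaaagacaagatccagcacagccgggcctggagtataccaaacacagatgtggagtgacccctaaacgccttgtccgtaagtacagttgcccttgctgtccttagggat
The Agt window held a STAT match at position -172 and a TATA match at -30 from the start. Slc25a18 held a TATA match on the other strand at -75, and the letters searched are not in the Aldh1l1 window.

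Promoter windows were found for 31 of the 34 genes, 39 windows in all, but not for Clu, Fjx1 and Slc7a2. They were set against 32851 windows of all genes, with matches counted on both strands. The NFI half-site TTGGCA was in 5.13% of the members' windows and 14.1% of all, the SOX core ACAATG in 2.56% and 12.6%, AP-1 (TGANTCA) in 2.56% and 7.81% and CRE (TGACGTCA) in 2.56% and 1.79%. The E-box CAGCTG was in 20.5% and 16.3%, the STAT motif TTCNNNGAA in 12.8% and 8.30%, and TATAAA in 17.9% and 13.6%. The median GC content was 57.7% in the members' windows and 52.7% in all. With 39 windows each share rests on 1 to 8 matches, and a match is a stretch of letters, not a bound site.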

How the data were processed

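The authors deposited log2 CPM values for 20730 genes in each of 16 libraries. STAR, HTSeq, edgeR, limma and mm10 are named, per the submitters' processing notes, without versions. Their settings and the use of strand in counting were not given in the sources used here. Undoing the log2 scale and a mean prior count of 0.25 gave whole reads for all values within 0.001, hence the depths. On the deposited log2 values, limma 3.58.1 (R 4.3.3) was fitted per gene with a mean-variance trend. Tests were two-sided, p-values were adjusted by Benjamini-Hochberg across the genes tested, and the threshold was 0.05. Genes tested had 10 reads in at least 4 libraries and 15 in all. The fit was tested on simulated data. The IP and input libraries of 1 mouse share an animal, per the labels, and their deviations from group means correlated by 0.114 to 0.327 over 8 pairs, so the mouse as a block was an alternative. Other alternatives were scaling, prior count, filter, voom weights, 1 model for all libraries, animal number sets, leaving out libraries, and leaving out 2 mice with high Xist. The members, gene lists and tests were chosen with earlier results of these data known. All 34 members are named. Of related lists, genes called in a comparison and the nearest paralogs are named. Marker lists are given as values, and interneuron markers were singled out after their values were seen. Of the related lists, 1 gene is not reported here.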

Additional observations from a re-analysis of the deposited data

Results flagged for a closer look

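Slc4a4 stood apart in PMCA input 4, with 8.60 log2 CPM against 8.72 to 8.74 in the other PMCA inputs, and Mlc1 in PMCA input 2, with 7.27 against 7.12 to 7.14. These were 2 of 136 groups of 4 libraries examined for a library far from the rest (1.47%), where chance picks about 1 in 20.

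The log2 fold of PMCA over control mice differed between IP and input for Egfr by -0.34 in the fit without a block (adjusted p = 0.0444, limma). This call was lost with the mouse as a block (adjusted p = 0.0806). Among relatives and pathway partners of the set, the fold in IP minus that in input was -0.51 for Scg2, -0.44 for Chga and -0.42 for Chgb, -0.33 for Slc25a12, -0.37 for Atp6ap2, -0.47 for Erbb4, -1.23 for Sdc1 and -0.47 for Nos1. It was 0.62 for Ttyh3, 0.43 for Agpat3 and 0.49 for S100a1. With the mouse as a block, Chgb did not pass (adjusted p = 0.0525). None of these genes, Egfr included, passed without PMCA 1, without PMCA 3 or without control 2.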

How the results depend on the processing

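In IP, 8 genes were called, 4 to 12 with 1 library left out, 16 with all 16 libraries in 1 model and 2 without the 2 mice with high Xist. In input, 1 was called, 0 without the filter, with all libraries in 1 model or with the animal number set of the source names as a covariate, 7 with that of the titles, 5 without the 2 mice with high Xist, 5 within the lower animal number set (an alternative chosen after seeing the data) and 0 to 7 with 1 library left out. For the difference between fractions, 1 was called, 0 with median-of-ratios scaling, without the filter, with voom weights or with the mouse as a replicate block, and 0 to 1 with 1 library left out. The median IP over input was 2.89 and 2.60 with total reads. The cause was not tested. Over all genes, 3088 were called in IP (1685 to 3573 with 1 library left out, 4691 in 1 model, 1699 with the number set of the source names, 1189 without the 2 mice with high Xist, 1935 within the lower set). In input, 72 were called (4 to 1356 with 1 library left out, 43 without the filter, 47 in 1 model, 868 and 32 with the number sets of titles and source names, 483 without the 2 mice, 478 within the lower set). In the difference, 339 were called (23 to 456 with 1 library left out, 466 with the mouse as a replicate block). No named value reversed. The labels of control 4 give conflicting animal numbers, so its number set is uncertain. By source names the higher set has no control, so that covariate leaves PMCA 1 and 2 against the controls. The precision of every fold is limited by 4 mice per group.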

Other observations

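Among the paralogs and pathway partners of the astrocyte genes, 156 were tested in IP, of which 14 rose, 21 fell and 121 did not pass in PMCA mice (limma), with a median log2 fold of -0.03. Over all genes 9.54% rose and 10.1% fell. Amino acid transporters of the SLC7 family divided: Slc7a14 (-0.32), the cationic transporter Slc7a3 (-0.56) and Slc7a4 (-0.35) fell, and the neutral amino acid exchanger Slc7a8 rose (0.45). Leaving out 1 library ended the call in 5 of 8 cases for Slc7a14 and Slc7a3 and in 6 of 8 for Slc7a4 and Slc7a8. In lipid synthesis, the acyltransferase Agpat3 rose (0.43 ± 0.07 SE) and Agpat9, another acyltransferase, fell (-0.36 ± 0.09), while the ceramide desaturase Degs1 fell (-0.24) and Degs2, of low coverage, rose (0.87). With 1 library left out, the call was lost in 4 of 8 cases for Agpat9, 6 of 8 for Degs1, 2 of 8 for Degs2 and 0 of 8 for Agpat3. The calcium-binding S100a1 rose (0.46), as did S100a11 (1.02), whose groups overlapped and whose call was lost in 6 of the 8 cases that leave out 1 library. Syndecan Sdc1 (-0.82), argininosuccinate synthase Ass1 (-0.72), the bicarbonate transporter Slc4a10 (-0.46) and the claudin Cldn12 (-0.26) fell.

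Interneuron genes stood high in the IP. Nos1 was enriched over input by 3.25 ± 0.05 log2 units (SE), the acetylcholine-synthesising Chat by 2.24, its vesicular transporter Slc18a3 by 2.11, the choline transporter Slc5a7 by 1.97, somatostatin (Sst) by 2.04 and Npy by 1.86, whereas Pvalb was lower in IP (-1.39). All 14 striatal projection neuron markers were lower in IP, with a median of -1.55. Over all genes 40.4% were higher and 43.7% lower in IP than in input. Of the 13 interneuron markers, 6 fell in PMCA IP and 7 did not pass, whereas 10.1% of all genes fell. Among the 6 were Chat (-0.44), Slc5a7 (-0.50), Pvalb (-1.38) and Pthlh (-1.01). The ependymal list also holds the choroid plexus genes Ttr, Kl and Folr1. Of its 9 genes 7 were higher in IP, for example Foxj1 of ciliated cells by 2.71, and 2 were lower.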
